A study of Mus musculus with 3 samples.

Results

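Guidance genes encode the ephrins and Eph receptors, the semaphorins with their plexin and neuropilin receptors, the Slits with the Robo receptors, and the netrins. All genes whose symbol named one of these families were taken from the array annotation, 61 genes measured by 119 probe sets, out of 17097 genes measured in all. A gene with several probe sets was represented by the one with the highest mean. The values came from 3 arrays of embryonic mouse mammary cells of 1 group. The cells were sorted by flow cytometry for high CD49f, an integrin of basal epithelium, and for high green fluorescence from Lgr5-IRES-GFP, in which the fluorescent protein is made from the Lgr5 locus. They came from female embryos at embryonic day 14, and the female embryos of 1 litter were pooled for each array. Epidermis was digested together with the mammary gland, each sort yielded 813 or 2000 cells, and the cDNA was amplified for 25 cycles. No second genotype, age or treatment was measured, so no other group was available for comparison.

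These proteins were named for steering axons, and the same ligands and receptors sort cells into layers, set tissue borders and guide branching epithelia and vessels. Ephrins stay on the cell surface and signal on contact, Slits, netrins and class 3 semaphorins are secreted, and the other semaphorins are mostly membrane proteins. In the mammary gland, Slits with Robo1 and netrin 1 with its receptor neogenin are known for holding the cell layers of the growing duct together.

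Most guidance genes gave a signal above background. Background was set on each array by 78 olfactory and vomeronasal receptor genes, whose 95th percentile was 6.29 on replicate 1, 6.23 on replicate 2 and 6.22 on replicate 3 (log2). Wherever 3 values of a gene are given below, they follow this order of arrays. A gene was called above background when its mean over this threshold had an adjusted p under 0.05 (limma, one-sided, Benjamini-Hochberg over all 17097 genes). By this test 46 of the 61 guidance genes (75.4%) were above background, against 52.5% of all genes. Their median distance to the threshold was 1.42 on the log2 scale, against 0.63 over all genes. A stricter threshold, the 95th percentile of 51 genes specific to sperm, pancreas, retina and other unrelated tissues, lay at 7.27, 7.36 and 7.35. Tested in the same way, 25 guidance genes (41.0%) were called above it, against 32.4% of all genes. The count called above the brightest antigenomic control probe set was also 25, against 31.6%. The members and lists were not tested as sets, and genes of a family are not independent replicates.

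**Figure D1:**
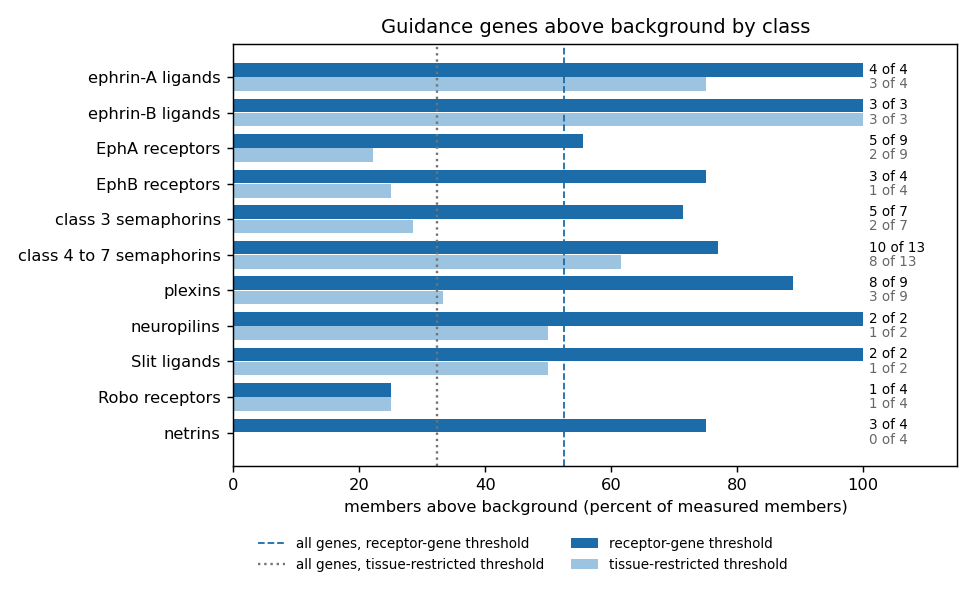
Share of measured guidance genes above background in each class (x axis, percent; y axis, class), by the receptor-gene threshold (dark bars) and the tissue-restricted threshold (light bars), with the share of all genes as dashed (52.5%) and dotted (32.4%) lines. Counts stand at the right: all 4 ephrin-A and all 3 ephrin-B ligand genes were above the receptor-gene threshold, against 1 of 4 Robo receptor genes.

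The identity of the cells bears on each of these calls. All 6 basal markers were above background, led in list order by the keratin genes Krt5 (log2 value 12.15 ± 0.16, SD, n = 3) and Krt14 (11.38 ± 0.25), as were 4 of 6 luminal and 5 of 6 mammary bud markers. Dermal mesenchyme markers were also above background in 8 of 9 cases, among them the collagen genes Col1a1 (12.99 ± 0.15) and Col1a2 (7.99 ± 0.09), while Pdgfra (4.89 ± 0.55) was not. The median of the mesenchyme list was 10.19, 9.89 and 10.36 on the arrays. Of 9 endothelial markers 2 were above background, Pecam1 (8.12, 8.30 and 6.47) and Egfl7 (7.29 ± 0.40), and Cdh5, the vascular cadherin gene, was not (5.81 ± 0.27). The endothelial median lay between 5.70 and 5.96. Of 8 Schwann cell and neuron markers 3 were above background, including Sox10 (8.02 ± 0.22) and Tubb3 (7.05 ± 0.51), whereas S100b (5.53 ± 0.27) was not. Leukocyte (2 of 8), erythroid (2 of 6), suprabasal epidermis (2 of 6) and skeletal muscle (2 of 7) markers were mostly not above background. The part of mesenchymal or other cells in the guidance gene signals was not tested, and on arrays of pooled cells fewer cells of a type and less RNA per cell cannot be told apart.

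The start regions of the guidance genes are shown first for 4 genes whose array values contrasted. Robo1 and Robo4 are receptors of 1 family with opposite calls, and Sema3e and Epha7 stood furthest above the other arrays on replicate 3. The sequences are the 250 bases before the RefSeq gene start (build GRCm38.p6), 5′ to 3′ on the gene's strand, with each CG dinucleotide in capitals. All 4 genes lie on the plus strand, Robo1 at chr16:72662899-72663148, Robo4 at chr9:37401722-37401971, Sema3e at chr5:14025026-14025275 and Epha7 at chr4:28812881-28813130.
Robo1: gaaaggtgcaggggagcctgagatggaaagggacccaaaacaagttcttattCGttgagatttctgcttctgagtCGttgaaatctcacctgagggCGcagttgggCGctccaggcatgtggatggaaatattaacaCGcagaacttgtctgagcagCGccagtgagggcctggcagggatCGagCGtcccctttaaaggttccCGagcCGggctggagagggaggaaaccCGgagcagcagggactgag
Robo4: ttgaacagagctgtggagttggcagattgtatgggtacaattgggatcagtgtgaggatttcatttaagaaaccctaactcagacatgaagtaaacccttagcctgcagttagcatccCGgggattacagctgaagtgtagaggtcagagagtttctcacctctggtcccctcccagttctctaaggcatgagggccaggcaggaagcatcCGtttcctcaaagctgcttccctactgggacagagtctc
Sema3e: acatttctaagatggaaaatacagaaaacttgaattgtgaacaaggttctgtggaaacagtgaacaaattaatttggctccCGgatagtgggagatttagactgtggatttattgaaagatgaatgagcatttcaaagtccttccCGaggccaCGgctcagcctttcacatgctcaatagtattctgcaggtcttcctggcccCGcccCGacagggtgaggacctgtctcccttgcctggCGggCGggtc
Epha7: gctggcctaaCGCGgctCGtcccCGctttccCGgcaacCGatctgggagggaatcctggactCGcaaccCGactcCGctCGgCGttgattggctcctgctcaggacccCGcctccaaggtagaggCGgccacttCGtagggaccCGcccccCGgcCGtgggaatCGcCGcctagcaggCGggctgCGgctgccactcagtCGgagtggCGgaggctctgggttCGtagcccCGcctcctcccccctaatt
The printed stretches hold 11 CG dinucleotides for Robo1, 2 for Robo4, 7 for Sema3e and 25 for Epha7. RefSeq start windows of 300 bases (250 before and 50 after the start) were found for 53 of the 61 guidance genes, with 68 windows in all, since some genes have several starts. The median window of a guidance gene held 17 CG dinucleotides, against 7 over all 32851 windows. Those windows belong to 27025 gene symbols, more than the 17097 measured genes, so they are not a matched background. Windows of genes above background held a median of 18 (from 2 to 42) and windows of the others 16 (from 2 to 56). The letters GGGCGG, a GC box, on either strand were found in 48 of the 68 windows (70.6%), against 35.7% of all windows, and the motif contains CG itself. The letters TATAAA on either strand were in 2 windows (2.94%), those of Efnb2 and Slit2, against 13.6%. CTTTGAT, a core of TCF/LEF sites, was in 1 window (1.47%), that of Nrp2, against 3.73%. Such matches describe letters and are not sites of binding.

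Ephrin ligand genes were above background without exception among those measured, 4 of 4 of the ephrin-A and 3 of 3 of the ephrin-B class. Ephrin-A ligands are anchored in the membrane by a lipid and bind mainly EphA receptors. Efna5 had log2 values of 10.32, 10.15 and 10.29, 4.0 above the threshold (SE 0.11, adjusted p = 1.03e-05). Its values lay close together, and its second probe set gave a mean of 10.17. Efna1 stood at 8.53, 8.53 and 9.32 (adjusted p = 0.000229). Efna2 stood at 9.17, 9.02 and 8.58 (adjusted p = 7.34e-05), lowest on replicate 3, whereas its second probe set, at 7.33, 7.0 and 7.74, was highest there. Both were above the stricter threshold on all arrays, but the second probe set of Efna1 had a mean of 5.83, below background. Efna4 stood at 7.68, 7.43 and 8.01, and lost its call under the tissue-restricted threshold (adjusted p = 0.108).

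Ephrin-B ligands cross the membrane and signal back into their own cell through a cytoplasmic tail. Efnb2 had log2 values of 9.75, 9.86 and 10.39, 3.75 above the threshold (SE 0.18, adjusted p = 3.48e-05). All 4 of its probe sets were above background, with means of at least 9.12. Efnb1, the X-linked member, stood at 8.48, 8.23 and 8.92 (adjusted p = 0.000185). A second probe set of Efnb1 gave a mean of 8.48 and the third 5.40, so the probe sets disagreed. Efnb3 stood at 9.22, 8.99 and 8.85 (adjusted p = 4.01e-05). The 3 ephrin-B genes passed under each of the 14 other settings tried, as did Efna1, Efna2 and Efna5.

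**Figure D2:**
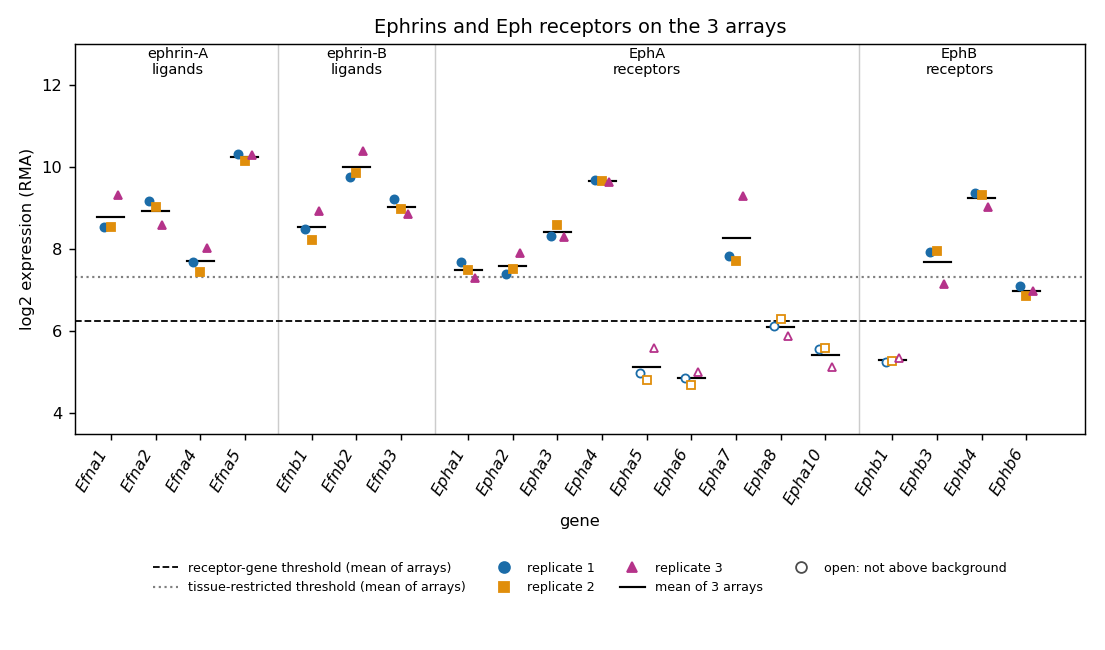
Log2 expression (y axis, RMA) of ephrin and Eph receptor genes (x axis) on replicate 1 (circles), replicate 2 (squares) and replicate 3 (triangles), with the mean of the arrays as a bar and open symbols for genes not above background. The 7 ephrin genes lie above the dashed receptor-gene threshold on all arrays, whereas 5 receptor genes do not pass; probe sets of different genes are not comparable in level.

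Eph receptor genes were above background in part. Of 9 EphA receptor genes 5 passed, near the share of all genes, and of 4 EphB receptor genes 3 passed. Epha4, whose product binds ephrins of both classes, had log2 values of 9.67, 9.66 and 9.63, 3.40 above the threshold (SE 0.12, adjusted p = 1.65e-05). It had the smallest SD of all 46 called guidance genes, 0.025 (n = 3). Its other 2 probe sets had means of 9.06 and 7.99, and the lower one stood at 7.56, 7.36 and 9.06. Epha3 stood at 8.33, 8.59 and 8.30 (adjusted p = 9.86e-05), although 2 of its 4 probe sets had means below the threshold. The epithelial receptor gene Epha2 stood at 7.39, 7.51 and 7.89, and Epha1 at 7.49 ± 0.19 (SD, n = 3). Neither passed the tissue-restricted threshold, with adjusted p of 0.208 and 0.454. Epha7 was the called guidance gene with the largest range over the arrays. It stood at 7.82, 7.70 and 9.30, so replicate 3 was 1.53 above the mean of the others, and it lost its call under the stricter threshold (adjusted p = 0.0505). Epha5 (5.12 ± 0.41), Epha6 (4.85 ± 0.17), Epha8 (6.10 ± 0.22) and Epha10 (5.42 ± 0.26) were not above background in the main test or in any alternative, and all 4 probe sets of Epha5 were below the threshold.

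Among EphB receptors, Ephb4, the main receptor of ephrin-B2, had log2 values of 9.37, 9.31 and 9.02, 2.98 above the threshold (SE 0.14, adjusted p = 3.26e-05). Ephb3 stood at 7.94, 7.95 and 7.14 (adjusted p = 0.00165). For both genes replicate 3 was the lowest array. Ephb6, whose kinase domain is inactive, stood at 6.98 ± 0.11 (SD, n = 3, adjusted p = 0.00321), under the tissue-restricted threshold. Ephb3 did not pass that threshold either (adjusted p = 0.236). Ephb1 (5.28 ± 0.05) was not above background.

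Semaphorin genes were above background in 15 of 20 cases, 5 of 7 in the secreted class 3 and 10 of 13 in classes 4 to 7. Sema3c, a secreted ligand of neuropilin and plexin receptors, had log2 values of 9.66, 9.65 and 9.82, 3.46 above the threshold (SE 0.13, adjusted p = 1.81e-05). Its second probe set, with a mean of 9.63, was less even, at 9.28, 9.27 and 10.34. Sema3f, which signals through neuropilin 2, stood at 9.73, 9.50 and 9.75 (adjusted p = 1.94e-05). Sema3b stood at 7.63, 7.78 and 7.59. Sema3c and Sema3f passed under each of the 14 other settings tried, whereas Sema3b lost its call under the tissue-restricted threshold (adjusted p = 0.0887). Sema3a, the classic axon repellent of the class, varied more, with 7.34, 6.86 and 8.05. Sema3d stood at 6.72, 7.29 and 7.84 and had a second probe set at 5.37, 6.0 and 9.12. Neither gene passed the tissue-restricted threshold, where the mean of Sema3d was below it, and Sema3d was not called when its probe sets were averaged (adjusted p = 0.106).

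Sema3e, a ligand that binds plexin D1 directly, had the largest range of the 61 guidance genes. Its log2 values were 6.02, 5.61 and 8.88. Only the array of replicate 3 was above the threshold, and the gene was not called (adjusted p = 0.369). It passed in fits of 2 arrays, without replicate 1 (adjusted p = 0.00583) or without replicate 2 (adjusted p = 0.00119). In each of these fits the array beside replicate 3 was below the threshold. The variance came largely from other genes, so these p-values do not measure the spread of Sema3e itself. The other 3 probe sets of Sema3e were also highest on replicate 3, at 7.27 against 6.37 and 6.31, at 6.07 against 5.26 and 5.38, and at 5.12 against 3.78 and 3.87. Sema3g (6.01 ± 0.44, SD, n = 3) was above the threshold on replicate 3 alone and not called.

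The membrane semaphorins of class 4 signal mainly through plexin B and plexin D receptors. Sema4a had log2 values of 9.37, 9.31 and 9.07, 3.0 above the threshold (SE 0.13, adjusted p = 2.99e-05). Sema4b stood at 7.58, 7.96 and 8.26, and Sema4g at 7.79, 7.77 and 8.39. Sema4d, the ligand of plexin B1, stood at 7.52, 7.91 and 8.34. All 4 passed the tissue-restricted threshold too, and Sema4b, Sema4d and Sema4g were highest on replicate 3. Sema4c (5.34 ± 0.52, SD, n = 3) was not above background. Sema4f stood at 6.70, 6.62 and 5.76 and was not called (adjusted p = 0.535), but passed without replicate 3 (adjusted p = 0.0017).

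Classes 5 and 6 were above background throughout, 6 of 6 genes. Sema5a, a membrane semaphorin with thrombospondin repeats, had log2 values of 11.09, 11.02 and 11.28, 4.88 above the threshold (SE 0.11, adjusted p = 6.99e-06). Of its 4 probe sets 3 were above background, with means from 9.46 to 11.13, and the fourth had a mean of 5.26. Sema5b stood at 7.88, 7.64 and 8.09. Both passed under each of the 14 other settings tried. Sema6a, a ligand of plexins A2 and A4, stood at 10.13, 10.34 and 10.86 (adjusted p = 2.89e-05), and its 3 probe sets were all above background. Sema6d stood at 7.90, 7.91 and 8.68, and lost its call when its 4 probe sets were averaged (adjusted p = 0.107). Sema6b (7.29 ± 0.07, SD, n = 3) and Sema6c (7.07 ± 0.13) were above the receptor-gene threshold and below the tissue-restricted one. Sema7a (5.73 ± 0.31), whose product is lipid-anchored and binds plexin C1, was not above background.

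**Figure D3:**
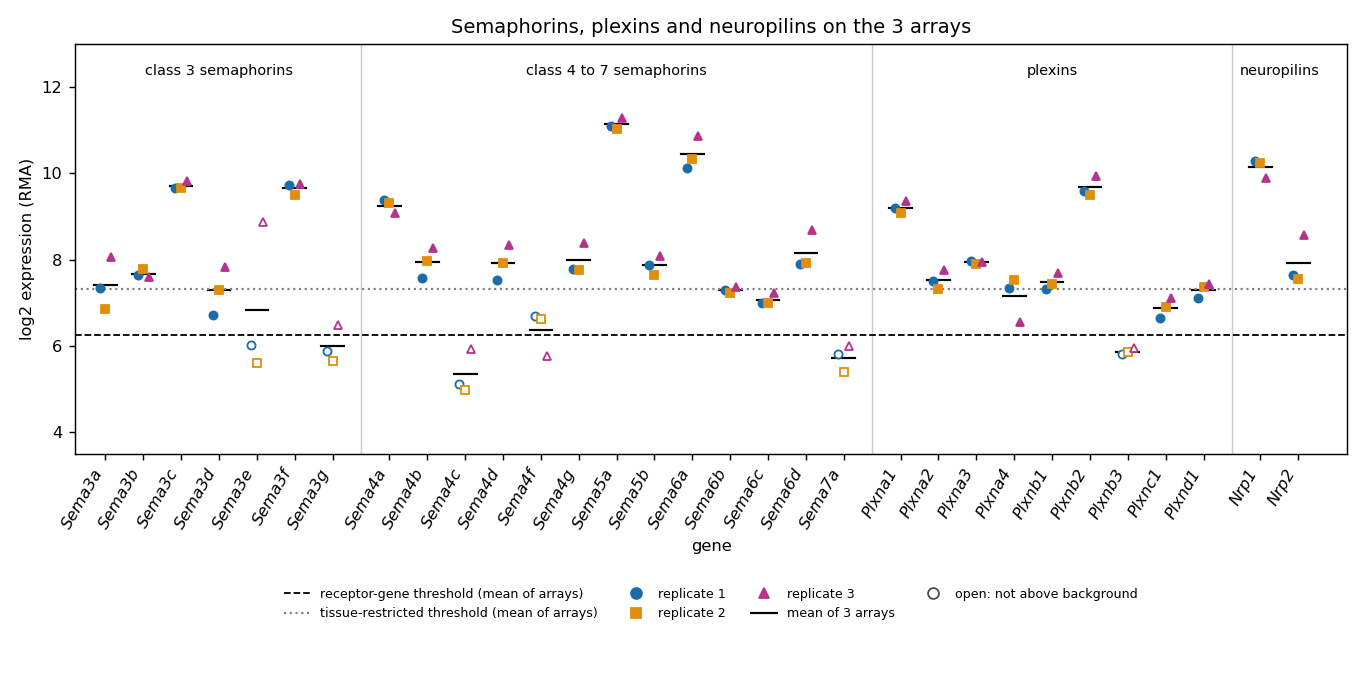
Log2 expression (y axis, RMA) of semaphorin, plexin and neuropilin genes (x axis) on replicates 1, 2 and 3 (circles, squares, triangles), with the mean as a bar and open symbols for genes not above background. Sema3e stands out with 8.88 on replicate 3 against 6.02 and 5.61, while Sema5a and Plxna3 have their arrays close together.

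Plexin genes, the receptors of the semaphorins, were above background in 8 of 9 cases. Plxnb2, a receptor of class 4 semaphorins, had log2 values of 9.60, 9.50 and 9.94, 3.43 above the threshold (SE 0.15, adjusted p = 2.83e-05). Plxna1 stood at 9.19, 9.07 and 9.35 (adjusted p = 3.26e-05). Plxna3 stood at 7.97, 7.89 and 7.95 (adjusted p = 0.000159). These 3 were the plexin genes that passed the tissue-restricted threshold. Plxnb1, the receptor of Sema4d, stood at 7.31, 7.43 and 7.69 and did not pass it (adjusted p = 0.480). Plxna2 (7.52 ± 0.22, SD, n = 3) and Plxnd1, the receptor of Sema3e (7.30 ± 0.17), passed the receptor-gene threshold and not the tissue-restricted one. Plxna4 stood at 7.34, 7.53 and 6.56, and passed at adjusted p = 0.0119. This probe set of Plxna4 was lowest on replicate 3, and the other one, at 6.45, 6.10 and 6.93, was highest there. Plxnc1 (6.88 ± 0.23) rested on a probe set marked as cross-hybridising. Its other probe set had a mean of 4.56, and the call was lost without the first one, with the mean of both, and without replicate 2 (adjusted p = 0.0662). Plxnb3 (5.86 ± 0.07) was the plexin gene not above background.

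Both neuropilin genes were above background. Nrp1, a co-receptor of class 3 semaphorins and of vascular endothelial growth factor, had log2 values of 10.29, 10.24 and 9.88, 3.89 above the threshold (SE 0.13, adjusted p = 1.59e-05). All 3 of its probe sets were above background, with means from 8.29 to 10.14. Nrp2 stood at 7.65, 7.55 and 8.57 (adjusted p = 0.00179), and lost its call under the tissue-restricted threshold (adjusted p = 0.073). Its second probe set ran the other way, with 7.80, 7.66 and 7.35.

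Slit ligands and their receptors differed in how many genes passed. Both measured Slit genes were above background, and of the 4 Robo genes only Robo1 was. Robo1, the receptor of Slit2, had log2 values of 11.08, 10.88 and 11.63, 4.95 above the threshold (SE 0.17, adjusted p = 1.70e-05). It passed under each of the 14 other settings tried and was measured by 1 probe set. Robo2 (4.59 ± 0.50, SD, n = 3), Robo3 (4.99 ± 0.05), known from commissural axons, and Robo4 (4.84 ± 0.29), the endothelial member, lay below the threshold on all arrays. Slit2 stood at 8.03, 8.0 and 8.82 (adjusted p = 0.000546). Its second probe set had a mean of 4.44, and with the mean of both the call was lost (adjusted p = 0.190). Slit1 (7.05 ± 0.39) was above the receptor-gene threshold (adjusted p = 0.0114) and below the tissue-restricted one.

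Netrin genes were above background in 3 of 4 cases, and none passed the tissue-restricted threshold. Netrins are secreted proteins related to laminins. Ntn3 had log2 values of 7.99, 7.69 and 7.38, 1.44 above the threshold (SE 0.17, adjusted p = 0.000628). Ntn1 stood at 7.24 ± 0.05 (SD, n = 3), with a second probe set at a mean of 6.51, and Ntn5 at 7.48 ± 0.14. Ntn4, a netrin of basement membranes, stood at 6.27 ± 0.11, within 0.02 of the threshold, and was not called (adjusted p = 0.720).

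**Figure D4:**
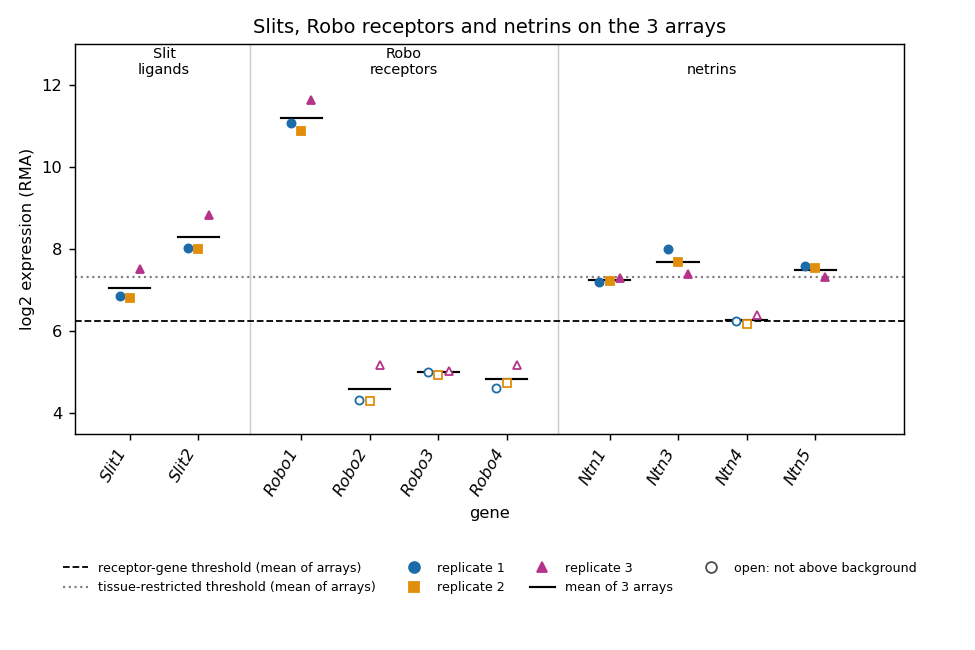
Log2 expression (y axis, RMA) of Slit, Robo and netrin genes (x axis) on replicates 1, 2 and 3 (circles, squares, triangles), with the mean as a bar and open symbols for genes not above background. Robo1 lies between 10.88 and 11.63, and Robo2, Robo3 and Robo4 lie below the dashed receptor-gene threshold on all arrays.

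Genes that act with the guidance genes were mostly above background, 49 of 58 measured, where 52.5% of all genes passed. By the tissue-restricted threshold 39 passed, against 32.4% of all genes. Of 9 genes for netrin receptors and for the Rgm ligands of neogenin, 6 passed, Rgma and Rgmb among them. First in list order were Dcc (log2 value 8.14 ± 0.23, SD, n = 3), the neogenin gene Neo1 (10.24 ± 0.26) and Unc5b (9.89, 10.12 and 11.34 on replicates 1, 2 and 3). Unc5a (6.88 ± 0.64, adjusted p = 0.0592) and Unc5d (5.40 ± 0.12) did not pass. The mean of Dcc was below the threshold when its probe sets were averaged, and Unc5a passed without replicate 3 (adjusted p = 1.77e-05). Of 17 Eph and ephrin partners 15 passed, including Adam10 (9.38, 9.22 and 11.04), a protease that sheds ephrins, and the adaptor genes Nck1 (7.26 ± 0.09) and Nck2 (9.32 ± 0.12), and not Ngef (5.93 ± 0.30) or Yes1 (5.77 ± 0.46). Of 18 semaphorin and plexin partners 15 passed, with the collapsin response mediator genes Crmp1 (6.79 ± 0.13), Dpysl2 (11.55 ± 0.05) and Dpysl3 (10.45 ± 0.11) first in list order. Rnd1 (4.63 ± 0.14) and L1cam (6.54 ± 0.77) did not pass, and Crmp1 lost its call without replicate 1 (adjusted p = 0.0665) or replicate 2 (0.0818). Of 14 Slit and Robo partners 13 passed, among them the GTPase activating genes Srgap1 (8.07 ± 0.10), Srgap2 (7.72 ± 0.55) and Srgap3 (9.19 ± 0.23), and Sos1 (4.26 ± 0.31) did not.

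The arrays differed little for most guidance genes above background, by the highest-mean probe set of each. The call itself favours genes with a small spread, and Sema3e, with the largest range, was not among them. Further probe sets ranged wider for some genes, such as Efnb2 (9.14, 9.05 and 10.89), and less for others, such as Nrp1 (9.68, 9.60 and 9.86). Over the 46 genes above background the SD over the litters had a median of 0.23, against 0.26 over all 8972 genes above background, and 4 of the 46 (8.7%) had a range over 1, against 13.8%. These were Epha7, Sema3a, Sema3d and Nrp2, all highest on replicate 3. The difference of replicate 3 from the mean of replicates 1 and 2 had a median of 0.23 over the 46 guidance genes and 0.26 over all genes above background. It turned to -0.11 and -0.12 after quantile normalization, and to -0.05 and -0.02 with each array centred on its median. Under the deposited, quantile-normalized and centred values alike, 18 of the 46 genes (39.1%) were higher on replicate 3, 13 (28.3%) were lower, and 15 (32.6%) changed sign. Of all genes above background 40.1% were higher, 31.7% lower and 28.2% changed sign, so the split of the guidance genes was near that of all genes.

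**Figure D5:**
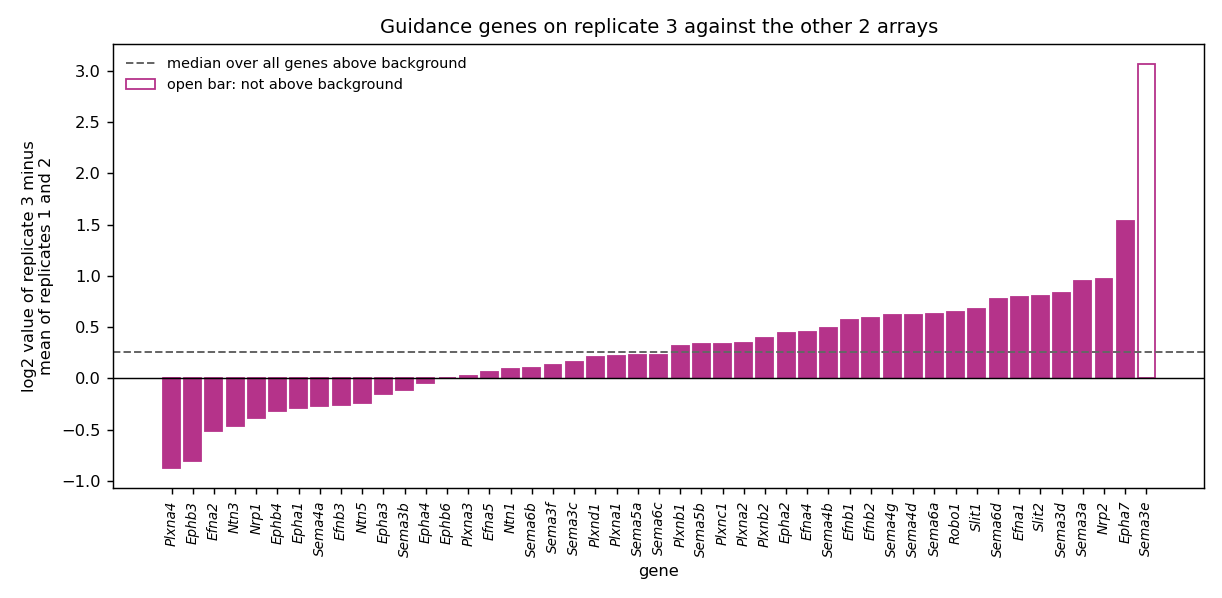
Difference of the log2 value on replicate 3 from the mean of replicates 1 and 2 (y axis) for the highest-mean probe set of the 46 guidance genes above background and of Sema3e (open bar, not above background), in rising order along the x axis. The dashed line is the median of 0.26 over all genes above background; Epha7 stands at 1.53 and Plxna4 at -0.87.

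The 18 genes that were higher on replicate 3 included Epha7, with a difference of 1.53, Nrp2 (0.97), Sema3a (0.95), Sema3d (0.83) and both Slit genes (0.81 for Slit2, 0.68 for Slit1), together with Robo1 (0.64), Efna1 (0.79), Efnb1 (0.57) and Efnb2 (0.59). After quantile normalization Epha7 differed by 1.11 and Nrp2 by 0.57, but the second probe set of Nrp2 had the opposite sign as deposited (-0.38). Of these 18 genes 14 had a further probe set, and for 2 of them, Nrp2 and Slit1, a further one was lower on replicate 3 as deposited. Further probe sets were not compared under the other scalings. Those of Efna1 (0.15), Efnb1 (0.11 and 0.03), Sema4d (0.15) and Plxnc1 (0.11) were higher by less than 0.26, the median over all genes above background. Efnb2, Epha7, Sema3a, Sema3d, Sema4b, Sema6a, Sema6d and Slit2 each had a further one higher by more than this. The 13 genes that were lower included Plxna4 (-0.87), Ephb3 (-0.81), Efna2 (-0.52), Ntn3 (-0.46), Nrp1 (-0.38), Ephb4 (-0.32) and Epha4 (-0.04). For most of the lower genes that could be compared, this direction held for the chosen probe set and not for a further one as deposited. Of the 13 genes 7 had a further probe set, and 6 of these, Efna2, Epha3, Epha4, Sema3b, Plxna4 and Nrp1, had one with a mean over the threshold that was higher on replicate 3. The further probe sets differed by 0.58 for Efna2, by 0.65 for Plxna4, by 0.22 and 0.72 for Nrp1, and by 0.38 and 1.60 for Epha4. Those of Sema3b differed by only 0.17 and 0.27. Efnb3 (-0.26), Ephb3, Ephb4 and Ntn3 were measured by 1 probe set each. Each litter was measured once, so these differences have no test, and litter, number of sorted cells and array processing cannot be told apart. Beside them, the median of the mesenchyme markers was 10.19, 9.89 and 10.36, while their mean was 10.03, 9.89 and 10.01. On replicate 3, Col1a1, Col1a2, Col3a1, Pdgfrb, Dcn and Twist2 were below the mean of the other arrays. Pdgfra, Lum and Postn were above it. The median of the basal markers was 10.09, 10.40 and 10.86, but the genes differed. Trp63 (0.57), Itga6 (0.68), Krt14 (0.24), Cdh3 (0.12) and Krt5 (0.03) were above the mean of the other arrays on replicate 3. Itgb4 (-0.02) was below it. All marker values are as deposited, where the median of all probe sets was 6.25, 6.25 and 6.52 on the arrays. The median of the mammary bud markers was 7.55, 7.57 and 8.17, but the genes were split. Lef1, Msx1 and Gata3 were higher on replicate 3 than the mean of the other arrays, and Tbx3, Msx2 and Wnt10b lower. Msx1, not above background, was higher by 0.20 and the mesenchyme marker Lum by 0.19. Both differences are under 0.26, the median over all genes above background. Medians were lowest on replicate 3 for the leukocyte (6.42, 6.50 and 6.05), erythroid (5.98, 6.18 and 5.71) and skeletal muscle markers (6.02, 6.11 and 5.81). These lists were split too, and most of their genes were not above background. Ptprc, Cd68 and Tyrobp (leukocyte), Hba-x, Hbb-y and Rhag (erythroid) and Myf5 (muscle) were higher on replicate 3 than the mean of the other arrays. The other genes of these lists were lower. The suprabasal median was 6.42, 6.74 and 6.53, and its keratin gene Krt10, picked after its values were seen, stood at 6.94, 7.70 and 9.18. The part of these marker lists in the differences was not tested.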

How the data were processed

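RNA of 3 arrays was analysed, 1 per litter and all of 1 group. The authors deposited log2 expression values, 1 per probe set, made with RMA and the affy package, per the submitters' processing notes; versions, settings, genome build and the number of cells of each sample are not given in the sources used here. RMA usually includes background correction, normalization and a summary over probes, and shrinks differences of weak signals. The columns of replicates 1 and 2 share a distribution of values and that of replicate 3 does not, so joint normalization of the arrays is uncertain.

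Of 45141 probe sets, 28898 had 1 gene symbol in the platform annotation, 551 had several and 15692, controls included, had none listed. The probe set with the highest mean represented each of 17097 genes. The log2 value minus the threshold of its array was fitted in limma 3.58.1 (R 4.3.3) by an intercept with trended empirical Bayes variances, and tested for a mean above 0 (one-sided p, Benjamini-Hochberg over all genes). The p-values rest on the spread of 3 litters and treat the threshold as known. In fits of 2 arrays they rest more on the variance shared over genes. The fit was tested on simulated data. Different genes were not compared in level, and the number of arrays limits the precision. The self-made summaries used Python 3.11.15, pandas 2.3.3 and matplotlib 3.10.9.

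All 61 members are accounted for. Values per array are given for called members above the tissue-restricted threshold on all arrays and for the 8 called members with the largest range; of the partner lists, the first 3 called and the first 2 others; of the basal, mesenchyme, endothelial and Schwann or neuron marker lists, the first 2 called and the first other. Further probe sets, Sema3e, Sema4f and the genes in the promoter paragraph were picked after their values were seen. The members and lists were chosen with earlier results of these data known. Alternatives changed the threshold, background set, probe set choice, normalization, variance model, filter, p adjustment and arrays.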

Additional observations from a re-analysis of the deposited data

How the results depend on the processing

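The count of 46 guidance genes above background was between 42 and 47 in 12 of 14 other settings, and 46 with receptor pseudogenes left out of the background set, a setting chosen after the data were seen. Leaving out 1 array gave 46 to 47 guidance genes and 47 to 50 partner genes. The count of guidance genes called was 25 (41.0%) with the tissue-restricted threshold, against 32.4% of all genes. With the antigenomic control it was also 25 (41.0%), against 31.6%. For the other alternatives the share of all genes called was not computed. Their counts therefore do not show whether the guidance genes stayed above that share. In all 14 settings 23 guidance genes passed, and 13 passed in none of them or in the main test. The 49 partner genes ranged from 39 to 50. Among genes above background in the main test and named in the text, the mean minus the threshold was below 0 under the tissue-restricted threshold for Ephb6 (-0.35), Sema3d (-0.041), Sema6b (-0.037), Sema6c (-0.26), Plxna4 (-0.18), Plxnc1 (-0.45), Plxnd1 (-0.021), Slit1 (-0.27), Ntn1 (-0.087), Nck1 (-0.062), Crmp1 (-0.53), Egfl7 (-0.031) and Tubb3 (-0.28). With the antigenomic control it was so for Ephb6 (-0.41), Sema3d (-0.099), Sema6b (-0.095), Sema6c (-0.32), Plxna4 (-0.24), Plxnc1 (-0.50), Plxnd1 (-0.080), Slit1 (-0.33), Ntn1 (-0.15), Nck1 (-0.12), Crmp1 (-0.59), Egfl7 (-0.089) and Tubb3 (-0.33). By both thresholds it was so too for the mammary bud markers Msx2 (mean 7.02) and Wnt10b (mean 7.21). Values of the bud markers under the other settings are not given. Both thresholds are higher by construction. With the mean of probe sets it was so for Plxnc1 (-0.42) and Dcc (-0.40), and without cross-hybridising probe sets for Plxnc1 (-1.68). The median of replicate 3 minus the other arrays over the 46 genes, 0.23 as deposited, became -0.11 after quantile normalization and -0.046 with each array centred, settings that remove the shift of a whole array, and 0.26 with the mean of probe sets. No paired analysis was possible because there was 1 group. Signal over background limits the weak genes: a gene between both thresholds cannot be told from the tissue-restricted genes.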
